A study of Homo sapiens with 6 samples.

Results

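The enzymes that write and erase marks on histones and on DNA were followed in MDA-MB-231 cells, an established human triple-negative breast cancer line with mesenchymal features. The members were 51 genes given by name: histone deacetylases, sirtuins, histone acetyltransferases, the Polycomb repressive complex 2, other lysine methyltransferases, lysine demethylases, DNA methyltransferases, TET dioxygenases and arginine methyltransferases. Their rule is a list of known enzymes and complex subunits that uses no measured value, although it was drawn up with earlier results of these data known. They are 51 of 19775 genes that have at least 1 probe set assigned to that gene alone. Where several probe sets measured a member, the one brightest on average over the 6 arrays stood for it, and for all 51 members that probe set passed the filter on dim probe sets.

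The cells grew in DMEM with fetal bovine serum and were exposed for 48 h either to 50 µM TCI04, a compound the labels give by code name, or to phosphate-buffered saline (PBS). Total RNA went onto Affymetrix arrays, 3 for each treatment. No label says whether the 3 arrays of a treatment were separate cultures, so the p-values below measure the spread between arrays, which may be technical. The study asked how expression differs between the treatments in this 1 line.

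Acetyltransferases place acetyl groups on histone lysines, which loosens chromatin, and deacetylases and the NAD-dependent sirtuins take them off. Lysine methyltransferases and demethylases set marks that stand for active or silent chromatin depending on the residue, such as the repressive mark of Polycomb on histone H3. DNA methyltransferases methylate cytosine, TET dioxygenases oxidise the methyl group, and several of these enzymes are drug targets in cancer.

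With TCI04, the messages of these enzymes stayed close to their level with PBS. No member passed the test: 0 of 51 had an adjusted p under 0.05 (limma on log2 signals, Benjamini-Hochberg over 32768 probe sets), and 1 was below 0.05 unadjusted. Among all 13677 genes tested the shares were 0.00731% and 7.05%. By the brightest probe set, the ratio of the mean signal with TCI04 to that with PBS lay between 0.81, for the mitochondrial sirtuin SIRT3, and 1.19, for SIRT5. The other tested probe sets of the members ranged more widely, with log2 fold changes of -0.77 to 0.35, and 0 passed the adjusted threshold. The 1 member below 0.05 unadjusted was the acetyltransferase KAT2B, at a log2 fold change of 0.21, and its close relative KAT2A had the opposite sign, -0.20.

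The regions upstream of 3 members are shown because the values below turn on these genes: KAT2A and KAT2B are paired paralogs with opposite signs, and PRMT1 is a member in which 1 array lay well below the other 5. Each line gives 250 bases before the gene start in RefSeq, 5′ to 3′ on the gene's strand (GRCh38.p14), with GC boxes (GGGCGG on either strand) in capitals. The KAT2A stretch is chr17:42121368-42121617 on the minus strand, that of KAT2B is chr3:20040196-20040445 on the plus strand, and that of PRMT1 is chr19:49677021-49677270 on the plus strand.
KAT2A: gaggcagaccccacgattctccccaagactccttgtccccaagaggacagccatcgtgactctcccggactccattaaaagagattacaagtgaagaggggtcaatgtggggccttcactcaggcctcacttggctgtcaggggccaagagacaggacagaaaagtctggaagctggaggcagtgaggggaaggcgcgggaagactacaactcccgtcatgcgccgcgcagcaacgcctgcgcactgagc
KAT2B: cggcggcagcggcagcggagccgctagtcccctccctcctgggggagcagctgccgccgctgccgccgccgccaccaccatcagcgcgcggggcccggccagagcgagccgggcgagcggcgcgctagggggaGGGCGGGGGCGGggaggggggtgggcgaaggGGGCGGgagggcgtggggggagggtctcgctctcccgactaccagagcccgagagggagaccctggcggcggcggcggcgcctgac
PRMT1: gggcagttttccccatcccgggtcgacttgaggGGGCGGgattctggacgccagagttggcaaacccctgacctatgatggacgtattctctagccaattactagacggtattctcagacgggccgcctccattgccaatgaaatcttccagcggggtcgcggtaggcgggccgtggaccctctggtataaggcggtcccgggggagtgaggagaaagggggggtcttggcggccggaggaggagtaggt

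The KAT2A stretch held 0 GC boxes and 11 CpG dinucleotides, at 58.8% G or C, whereas that of KAT2B held 3 GC boxes and 33 CpGs at 80.8%. The PRMT1 stretch had 1 GC box and 2 CCAAT boxes. RefSeq gave such a window for 47 members, and 31 of them (66.0%) had a GC box in at least 1 window, against 46.2% of 27305 genes. Those 27305, called all genes in this paragraph, are every gene with a window, whether or not it was tested on the arrays. Members had more windows per gene (78 for 47 genes, against 35116 for 27305), and counted per window the shares with a GC box were 57.7% and 42.6%. The motif of AP-1, the factor that contains FOS, was searched as TGANTCA on both strands and occurred in 1 of the 47, HDAC9 (2.13%, against 8.06% of all genes). CCAAT occurred in 38.3% of members and 37.0% of all genes, and the E-box CACGTG in 21.3% and 7.73% (15.4% and 6.34% of windows). The median share of G or C was 68.0% in members' windows and 58.0% over all windows. These matches describe sequence only, and no binding was measured here.

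The log2 fold changes of all 51 members centred on 0. Their median was 0.003, beside -0.002 over all genes tested, and 26 members (51.0%, against 49.4% of all genes) had a higher and 25 a lower mean with TCI04. A log2 fold change here is the difference of mean log2(signal + 10.96), a scale on which low signals show less than their true change. For 43 of 51 members the whole 95% interval lay within 1.5-fold in either direction, as it did for 66.5% of all genes, and for all 51 it lay within 2-fold (86.1% of all genes).

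**Figure D1:**
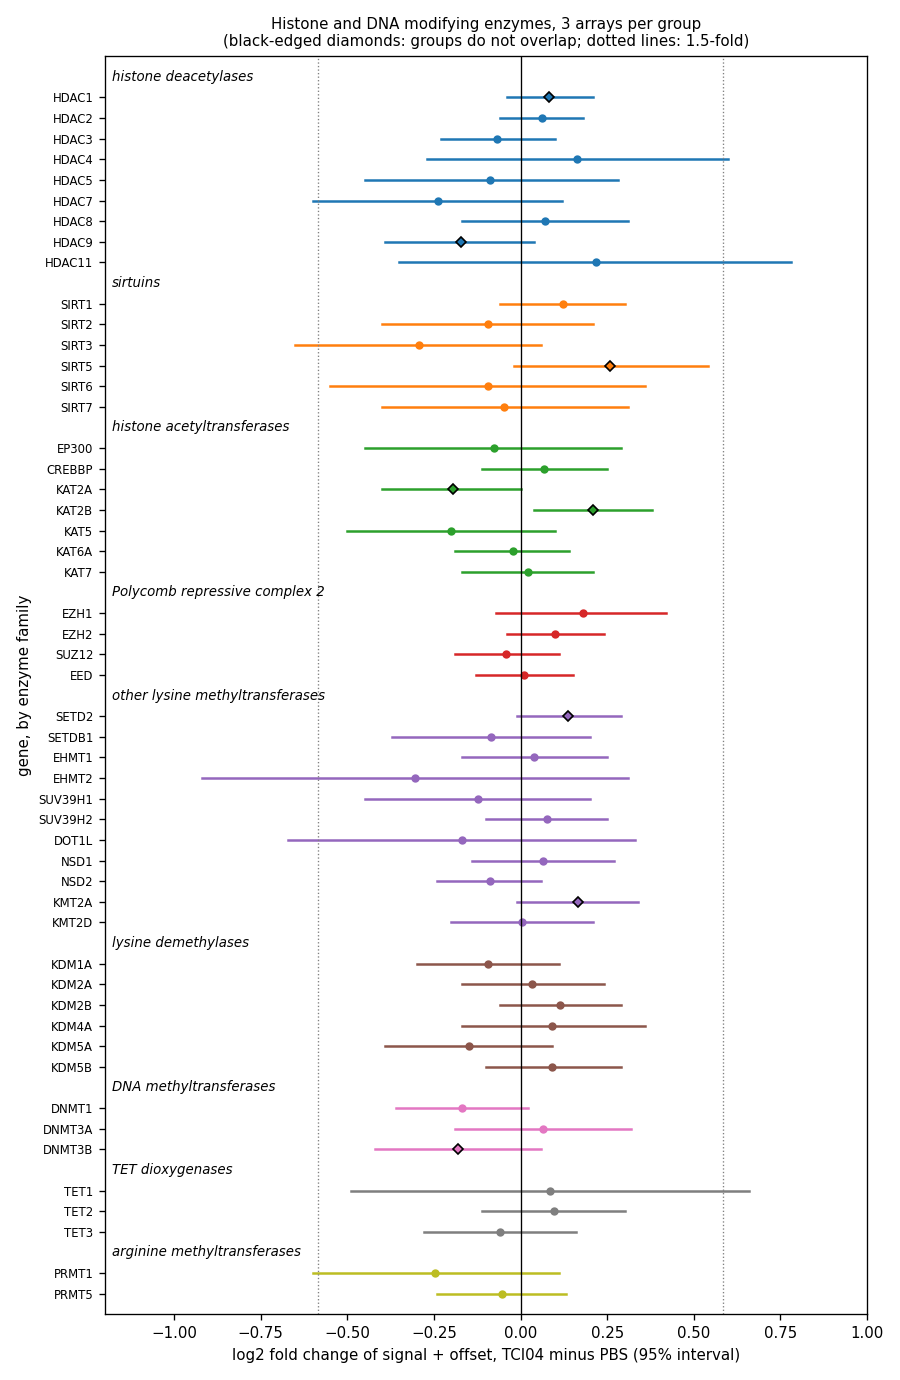
Log2 fold change of signal (horizontal axis, TCI04 minus PBS, 3 arrays each) with 95% intervals for the 51 members, by family; dotted lines mark 1.5-fold and diamonds the 8 members whose groups do not overlap. All 51 intervals but that of KAT2B include 0 or end at it, and the widest belong to EHMT2, HDAC11 and TET1.

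The 8 members whose intervals reached past 1.5-fold were HDAC4, HDAC7, HDAC11, SIRT3, EHMT2, DOT1L, TET1 and PRMT1. For these a change of 1.5-fold lay inside the interval. The H3K9 methyltransferase EHMT2 had the widest interval, from -0.92 to 0.31. The median standard deviation within a group was 0.105 on the log2 scale for the members and 0.146 over all genes.

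In 5 of 51 members (9.8%) every TCI04 array lay above every PBS array, and in 3 (5.88%) every one lay below. The background was 6.66% and 6.92% of all genes, so both counts were near the background. The 5 were HDAC1, SIRT5, KAT2B, SETD2 and KMT2A, and the 3 were HDAC9, KAT2A and DNMT3B. Except for KAT2B, SIRT5, KMT2A and HDAC9, they are named because their values were seen.

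**Figure D2:**
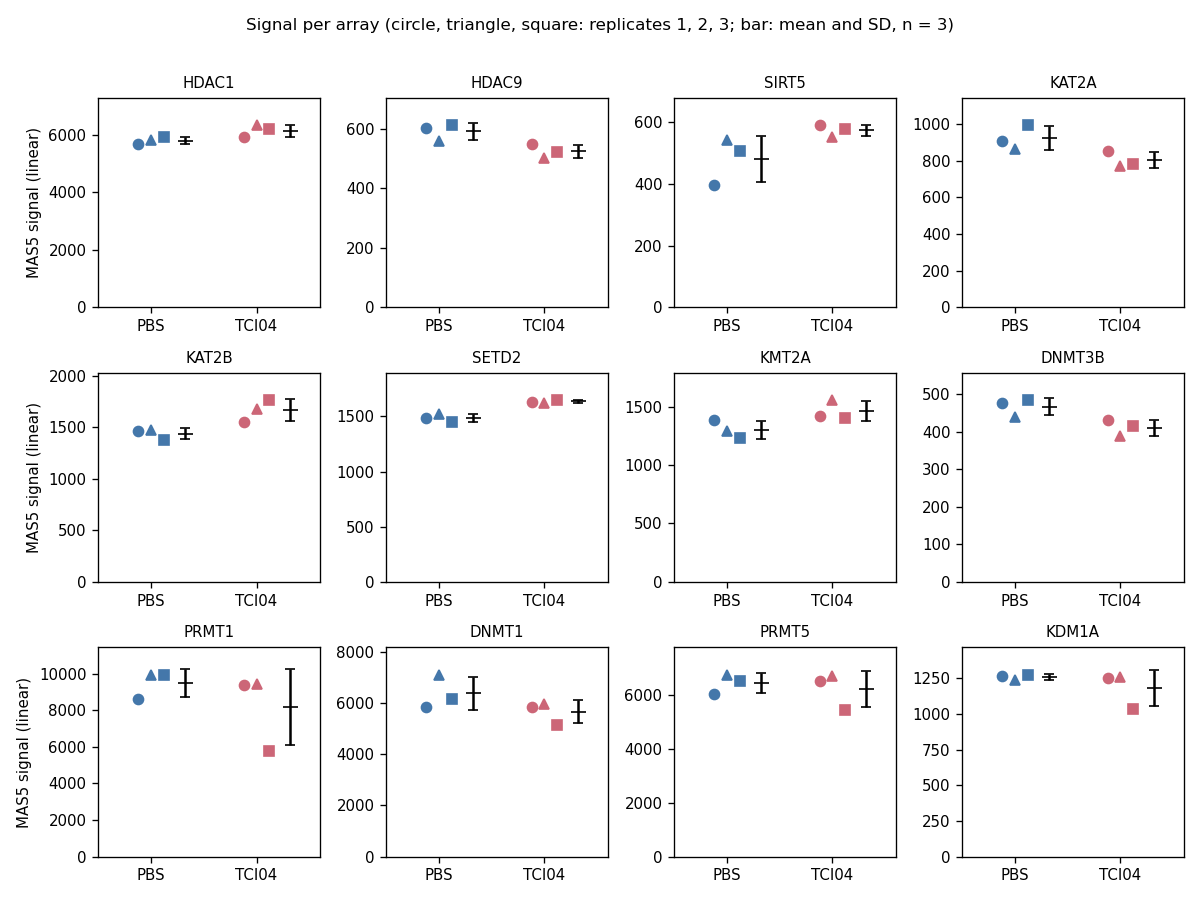
MAS5 signal on a linear scale for each array (circle, triangle and square are replicates 1, 2 and 3) with the mean and SD beside them, in the 8 members whose groups do not overlap and in 4 members with a low value in TCI04 replicate 3. The gaps between groups are narrow, 5905 against 5916 for HDAC1, and for PRMT1 the square at 5774 lies apart from 5 values of 8608 or more.

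Among the class I deacetylases, which act in nuclear corepressor complexes, HDAC1 measured 5687, 5802 and 5905 with PBS and 5916, 6322 and 6189 with TCI04. The groups did not overlap, by a margin of few signal units, and the log2 fold change was 0.08 with an interval from -0.04 to 0.21. HDAC2, its partner in those complexes, measured 8465, 8703 and 9047 with PBS and 8923, 9083 and 9332 with TCI04. Its groups overlapped, and the log2 fold change was 0.06. The log2 ratio of HDAC1 to HDAC2 within an array differed by 0.02 between treatments, with standard deviations of 0.02 and 0.04 (exact two-sided permutation test, p = 0.6, n = 3 arrays each). HDAC3, the deacetylase of the NCOR complexes, had a log2 fold change of -0.07 and HDAC8 one of 0.07.

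The class IIa deacetylases shuttle between nucleus and cytoplasm and repress transcription as part of larger complexes. Of these, HDAC9 measured 603, 561 and 612 with PBS and 548, 503 and 523 with TCI04. All TCI04 arrays were lower, at a log2 fold change of -0.17 (SE 0.10, limma adjusted p = 0.705). Its other tested probe sets gave -0.35, -0.21 and 0.08. HDAC4, HDAC5 and HDAC7 had log2 fold changes of 0.16, -0.09 and -0.24 with overlapping groups. The class IV enzyme HDAC11 had 0.22, with PBS replicate 1 low at 71.7 against 126 to 147 in the other arrays, and -0.08 without that array. HDAC4 had -0.05 without TCI04 replicate 1, and HDAC7 -0.09 without PBS replicate 3. Of 9 deacetylases, 5 had a higher and 4 a lower mean.

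The sirtuins couple deacylation to the NAD level of the cell. SIRT5, a mitochondrial enzyme that removes succinyl and malonyl groups, measured 398, 542 and 507 with PBS and 590, 553 and 579 with TCI04. All TCI04 arrays were above the PBS arrays, of which replicate 1 was low, and the log2 fold change was 0.26 with an interval from -0.02 to 0.54 (limma, adjusted p = 0.698). Its dimmer probe sets did not share the sign: 1 was near 0 and the other gave -0.57, so the mean over its probe sets was -0.10. Without PBS replicate 1 the brightest gave 0.13. SIRT1, the nuclear sirtuin that also deacetylates p53, measured 1666, 1470 and 1545 with PBS and 1800, 1570 and 1731 with TCI04, with overlapping groups and a log2 fold change of 0.12. SIRT3 had the lowest value of the sirtuins, -0.29 with an interval from -0.65 to 0.06. SIRT2, SIRT6 and SIRT7 lay between -0.09 and -0.05, and 4 of 6 sirtuins had a lower mean.

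The acetyltransferases KAT2A (GCN5) and KAT2B (PCAF) are paralogs and alternative catalytic subunits of the SAGA and ATAC coactivator complexes. KAT2B measured 1461, 1472 and 1380 with PBS and 1555, 1677 and 1763 with TCI04. Every TCI04 array was above every PBS array, with means of 1438 ± 50.5 and 1665 ± 104 (SD, n = 3 arrays each). The log2 fold change was 0.21 (SE 0.08), with an interval from 0.04 to 0.38 (limma, unadjusted p = 0.0203, adjusted p = 0.698), so it failed the correction.

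KAT2A measured 910, 865 and 992 with PBS and 853, 773 and 784 with TCI04, all TCI04 arrays below the PBS arrays. Its means were 922 ± 64.7 and 803 ± 43.7, and its log2 fold change was -0.20 (SE 0.09, limma unadjusted p = 0.0544, adjusted p = 0.698). Each of these genes has a single probe set, so neither value could be set against another. A scaling factor shared by all probe sets of an array hardly enters the log2 ratio of KAT2A to KAT2B within that array, and only its change between treatments is read here, not which gene is higher. The ratio was -0.68, -0.76 and -0.47 with PBS and -0.86, -1.11 and -1.16 with TCI04, and the groups did not overlap.

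The mean difference of that ratio was -0.40 (exact two-sided permutation test, p = 0.1, the smallest that 3 against 3 arrays can give). It was 1 of 11 pairs of related members compared, all chosen with results of these data known, and the lowest p adjusted over the 11 pairs was 0.55. KAT2A/KAT2B was the only one of the 11 pairs without overlap. The groups of each gene alone were already apart, in opposite directions, so this ratio could not overlap. Its permutation p was thereby fixed, and the ratio is no further evidence beside the values of the genes. Other combinations of members, such as SIRT3 (-0.29) and SIRT5 (0.26), were not compared as ratios. Without TCI04 replicate 3, the difference was -0.35.

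**Figure D3:**
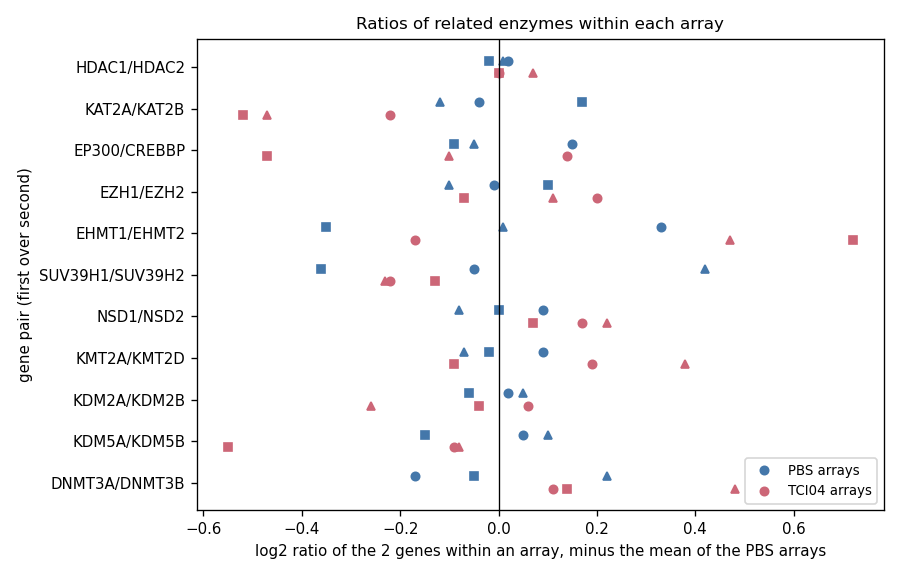
Log2 ratio of 2 related members within each array (horizontal axis, as the difference from the mean of the PBS arrays) for 11 pairs; circle, triangle and square are replicates 1, 2 and 3. Only for KAT2A/KAT2B, 1 of 11 pairs, do the 3 TCI04 arrays lie apart from the PBS arrays. This follows from the groups of each gene, which lie apart in opposite directions. Of all genes tested, taken singly, 6.66% lay above and 6.92% below without overlap. The PBS arrays of EHMT1/EHMT2 and SUV39H1/SUV39H2 have standard deviations of 0.34 and 0.39.

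The general coactivators EP300 and CREBBP acetylate histone H3 at enhancers. CREBBP measured 2375, 2075 and 2027 with PBS and 2130, 2422 and 2234 with TCI04, with overlapping groups and a log2 fold change of 0.07. Its other tested probe sets, both dimmer, gave -0.28 and -0.34, so the sign depends on the probe set. EP300 had -0.08 from its brightest probe set.

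The other tested EP300 probe set had the opposite sign, and both are given because their values were seen. It measured 426, 418 and 449 with PBS and 558, 495 and 607 with TCI04, without overlap, at a log2 fold change of 0.35 (limma, unadjusted p = 0.00976, adjusted p = 0.698). The brightest probe set measured 681, 513 and 487 against 606, 579 and 412. TCI04 replicate 3 was the lowest array in the brightest probe set and the highest in the other, and without that array the brightest gave 0.09. KAT5, the catalytic subunit of the TIP60 complex, had -0.20 (-0.05 without TCI04 replicate 3), KAT6A -0.02 and KAT7 0.02, all with overlapping groups.

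Polycomb repressive complex 2 methylates lysine 27 of histone H3 through EZH2 or EZH1, with SUZ12 and EED as core subunits. SUZ12 measured 5178, 5860 and 5420 with PBS and 5295, 5098 and 5592 with TCI04, fully overlapping, at a log2 fold change of -0.04. EZH1 measured 392, 401 and 435 with PBS and 506, 456 and 433 with TCI04. Its highest PBS array was just above its lowest TCI04 array, and its log2 fold change was 0.18 with an interval from -0.07 to 0.42 (limma, adjusted p = 0.722), while its 3 other probe sets lay between -0.02 and 0.03. EZH2 had 0.10 with an interval from -0.04 to 0.24, and EED 0.01 with an interval from -0.13 to 0.15.

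Among the other lysine methyltransferases, SETD2, which trimethylates lysine 36 of histone H3 behind RNA polymerase II, measured 1486, 1524 and 1446 with PBS and 1633, 1624 and 1647 with TCI04. The TCI04 arrays were tightly grouped above the PBS arrays, at a log2 fold change of 0.14 (interval -0.01 to 0.29, limma adjusted p = 0.698). Its dimmer probe sets gave -0.01 and -0.06. NSD2, which dimethylates the same lysine, measured 3159, 3090 and 3103 with PBS and 2862, 2790 and 3162 with TCI04, at -0.09. TCI04 replicate 3 lay above all PBS arrays while the other TCI04 arrays lay below them, and its remaining probe sets gave -0.72 to 0.03.

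KMT2A (MLL1), which methylates lysine 4 of histone H3, measured 1381, 1288 and 1227 with PBS and 1423, 1555 and 1399 with TCI04. The TCI04 arrays were all higher, at a log2 fold change of 0.17 with an interval from -0.01 to 0.34 (limma, adjusted p = 0.698). All 7 of its other tested probe sets had a negative sign, from -0.30 to -0.04, and the mean over its 8 probe sets was -0.13. KMT2D, its relative at enhancers, had a log2 fold change of 0.00 from its brightest probe set. The other tested probe sets of KMT2D gave 0.09 and -0.37, the latter with all TCI04 arrays lower (limma, unadjusted p = 0.0565, adjusted p = 0.698). The direction for KMT2A therefore rests on 1 probe set.

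**Figure D4:**
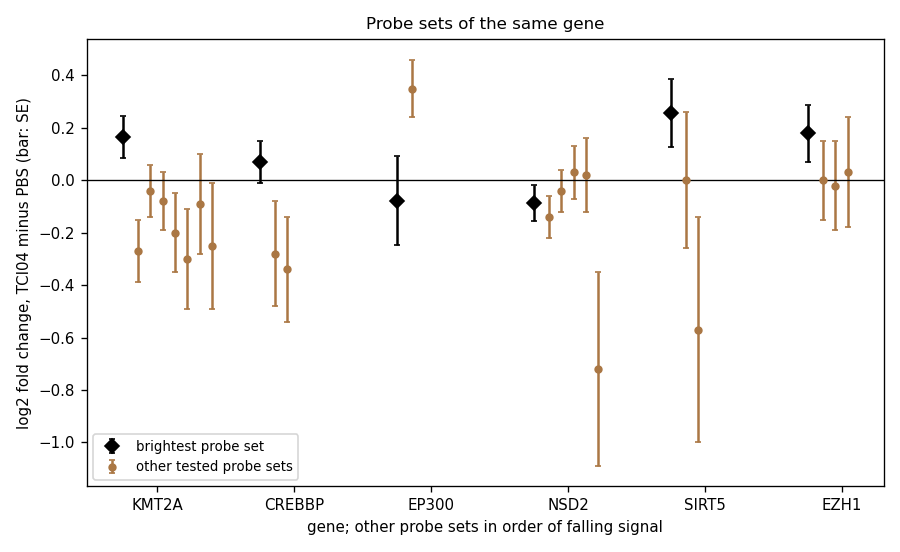
Log2 fold change with its standard error (vertical axis, TCI04 minus PBS, n = 3 arrays each) of the brightest probe set (diamonds) and of the other tested probe sets (circles, in order of falling signal) of 6 members. For KMT2A the diamond is at 0.17 and all 7 circles are below 0, and for EP300 the circle at 0.35 lies above the diamond at -0.08.

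The H3K9 enzymes showed no shared direction: SETDB1 had a log2 fold change of -0.09, EHMT1 0.04, EHMT2 -0.31, SUV39H1 -0.12 and SUV39H2 0.08, all with overlapping groups. The value of EHMT2 was -0.05 without TCI04 replicate 3, its lowest array at 79.9. EHMT1 also had a dim probe set that measured 95.3, 103 and 110 with PBS and 76.0, 52.7 and 42.5 with TCI04, named because its values were seen. That is a log2 fold change of -0.77 without overlap (limma, unadjusted p = 0.0132, adjusted p = 0.698), against 0.04 for the brightest. DOT1L, the H3K79 methyltransferase, had -0.17, but 0.09 without TCI04 replicate 3 (169 there, its lowest array) and 0.02 as the mean of its probe sets. NSD1, which methylates lysine 36, had 0.07. Of these 11 methyltransferases, 6 had a higher and 5 a lower mean.

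Over all members, 118 of 142 probe sets were tested, of which 0 passed the adjusted threshold (0.00305% of all 32768 did), 24 were too dim, and 33 members had more than 1 tested. In 23 of these 33 the tested probe sets did not all have the same sign. Of the 67 other probe sets, 2 lay without overlap above and 6 below the PBS arrays, and 0 passed the adjusted threshold (2 at an unadjusted p under 0.05, those of EP300 and EHMT1). Over all 118 member probe sets 5.93% lay above and 7.63% below, against 5.35% and 8.2% of all 32768, and 2.54% had an unadjusted p under 0.05, against 7.08%.

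Lysine demethylases remove methyl groups by oxidation. KDM2A, which acts on lysine 36 of histone H3 at CpG islands, measured 1290, 1203 and 1134 with PBS and 1303, 1103 and 1310 with TCI04. The groups overlapped fully, at a log2 fold change of 0.03 that turned sign without any of 3 single arrays. KDM2B, which recruits a variant Polycomb complex to CpG islands, measured 1180, 1074 and 1097 with PBS and 1160, 1222 and 1245 with TCI04, with 1 TCI04 array below the highest PBS array, at 0.11 (limma, adjusted p = 0.744). KDM4A and KDM5B each had 0.09, KDM5A -0.15 (-0.05 without TCI04 replicate 3) and KDM1A (LSD1), a partner of HDAC1 in the CoREST complex, -0.10. The other tested probe sets of KDM5A gave -0.42 to 0.02. The one at -0.27, given because its values were seen, had all TCI04 arrays lower (limma, unadjusted p = 0.054, adjusted p = 0.698). In KDM1A the 3 PBS arrays and 2 TCI04 arrays measured 1238 to 1276, and TCI04 replicate 3 measured 1038; KDM1A and PRMT5 are given by array because that replicate was seen to be low.

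Of the DNA methyltransferases, DNMT1, which copies methylation after replication, measured 5856, 7109 and 6168 with PBS and 5852, 5980 and 5147 with TCI04. The groups overlapped, with a high PBS replicate 2 and a low TCI04 replicate 3, at a log2 fold change of -0.17 with an interval from -0.36 to 0.02 (limma, adjusted p = 0.698). Without TCI04 replicate 3 it was -0.10, and without PBS replicate 2 it was -0.09. The de novo enzyme DNMT3B measured 476, 441 and 485 with PBS and 431, 388 and 415 with TCI04. All TCI04 arrays were lower, at -0.18 (limma, adjusted p = 0.715), while its paralog DNMT3A had 0.07.

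The TET dioxygenases start the removal of DNA methylation. TET2 measured 658, 599 and 617 with PBS and 659, 648 and 696 with TCI04, at 0.10, and TET3 measured 828, 786 and 695 with PBS and 693, 772 and 745 with TCI04, at -0.06. In both the groups overlapped. TET1, with signals of 92.4 to 187, had 0.09 and an interval from -0.49 to 0.66.

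The arginine methyltransferases PRMT1 and PRMT5 place asymmetric and symmetric dimethyl marks on histones and many RNA-binding proteins. PRMT1 measured 8608, 9951 and 9932 with PBS and 9359, 9437 and 5774 with TCI04. Replicates 1 and 2 of TCI04 lay within the PBS range, and replicate 3 lay well below every other array. The log2 fold change was -0.25 (limma, adjusted p = 0.728) and -0.01 without TCI04 replicate 3. PRMT5 measured 6067, 6773 and 6544 with PBS and 6551, 6716 and 5450 with TCI04, again with replicate 3 lowest, at -0.05, and 0.04 without that array. Its other tested probe sets, also bright, gave 0.05 and -0.01. In the first, TCI04 replicate 3 measured 5592, within the 4742 to 5745 of the other arrays. In the second it measured 4466, just below their 4552 to 4704, so the clear drop in PRMT5 rests on its brightest probe set.

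TCI04 replicate 3 stood apart in 1 of 2 RNA controls: the 3' to 5' signal ratio of the ACTB control was 3.33 there and 1.64 to 1.72 in the other 5 arrays (p = 0.3 between treatments, two-sided exact permutation test, of which 0.1 is the smallest possible). For GAPDH the ratio was 1.21 there and 0.97 to 1.08 in the others (p = 0.6, exact permutation test). The replicate was the lowest of the 6 arrays in 11 of 51 members (21.6%, against 19.1% of all genes) and the highest in 11 (21.6%, against 26.2%). It was lowest in HDAC5, EP300, KAT5, EHMT1, EHMT2, DOT1L, KDM1A, KDM5A, DNMT1, PRMT1 and PRMT5. It was highest in HDAC2, KAT2B, EZH2, SETD2, SUV39H2, NSD2, KMT2D, KDM2A, KDM2B, KDM5B and TET2. The part of RNA quality in these values was not tested. Without TCI04 replicate 3, 25 members had a higher mean, the members' median was -0.001 and KAT2B had a log2 fold change of 0.17.

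Of the related genes, 0 passed the adjusted threshold in any of 3 lists. In 44 other histone and DNA modifying enzymes, 40 were tested, 22 with a higher and 18 with a lower mean and a median log2 fold change of 0.02. Of these, 0 were below an unadjusted p of 0.05 in either direction, against 7.05% of all genes. The smallest p there belonged to the arginine methyltransferase PRMT6, at 0.16 (limma, adjusted p = 0.698), the demethylase KDM1B, at 0.29 with -0.22 from its other probe set, and the demethylase PHF2, at 0.19.

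Partner subunits of the modifying complexes gave 45 tested of 48, with a median of -0.03. At an unadjusted p under 0.05, 1 had a higher and 5 (11.1%) a lower mean, beside 2.9% and 4.15% of all genes. The higher one was MEAF6, a subunit of the KAT6A and KAT7 complexes, at 0.19, with 0.11 to 0.22 from its other probe sets. The lower ones were MBD3 and CHD4, subunits of the NuRD complex that holds HDAC1 and HDAC2, at -0.29 and -0.25, PHF1, a Polycomb partner, at -0.28, WDR77, the partner of PRMT5, at -0.21, and CXXC1, a subunit of the SETD1 complexes, at -0.25, all at 0.698 after adjustment in limma. CHD4, WDR77 and CXXC1 are named because their values were seen.

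WDR77 measured 3253, 3405 and 3345 with PBS and 3017, 3164 and 2489 with TCI04. TCI04 replicate 3 was lowest here, as in the brightest probe set of PRMT5. Without that array the log2 fold changes were -0.18 for MBD3, -0.14 for CHD4, -0.11 for WDR77, -0.18 for CXXC1 and -0.38 for PHF1. The other probe set of WDR77 gave 0.01, and those of MBD3 ranged from -0.20 to 0.09.

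Readers and subunits of Polycomb repressive complex 1 gave 24 tested of 30, 12 in each direction. With an unadjusted p under 0.05 there were 1 higher and 0 lower, beside 2.9% and 4.15% of all genes. PCGF3, a subunit of a variant Polycomb complex, measured 943, 924 and 876 with PBS and 1090, 1086 and 1260 with TCI04. All TCI04 arrays were higher, at a log2 fold change of 0.32 (limma, unadjusted p = 0.00448, adjusted p = 0.698), while its other tested probe sets ranged from -0.84 to 0.12. The bromodomain protein BRD7 had 0.13, with -0.10 to 0.23 from its other probe sets, and the corepressor TRIM28 had -0.23, or -0.04 without TCI04 replicate 3.

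As a check of the material, the 7 markers of this line that were looked for (VIM, CD44, AXL, CAV1, EGFR, SPARC and ITGB1) all passed the filter, with summed signals of 103479 to 109520 with PBS and 104465 to 106316 with TCI04. Leukocyte markers summed to 79.2 to 208 and 78.0 to 171 over 4 measured genes, of which 1 passed the filter. Luminal and epithelial markers summed to 3327 to 3780 with PBS and 2519 to 3581 with TCI04 (6 of 8 passed the filter), endothelial markers to 277 to 284 and 211 to 251 (2 of 4), and fibroblast markers to 561 to 574 and 445 to 707 (2 of 5). Of the luminal and epithelial markers, CDH1 and PGR were below the filter, CDH1 at 1.8 to 5.1 with PBS and 3.8 to 21.0 with TCI04. Over the 6 arrays KRT19 measured 873 to 1793, GATA3 683 to 995, ERBB2 400 to 525 and EPCAM 340 to 454. FOXA1 measured 85.6 to 138 and ESR1 18.5 to 94.3, and both passed the filter. In the whole table FOS was the 1 gene past the adjusted threshold, at a log2 fold change of -1.15 (limma, adjusted p = 0.00613). ACTB, another check gene, measured 43253 to 46556 with PBS and 35992 to 41602 with TCI04, without overlap. Its log2 fold change was -0.21 (limma, unadjusted p = 0.00556, adjusted p = 0.698), as large as those of KAT2A and KAT2B. GAPDH had -0.14 with overlapping groups (limma, unadjusted p = 0.0652, adjusted p = 0.698). Median signals per array were 64.0 to 74.3 with PBS and 58.9 to 59.8 with TCI04, at a common trimmed mean of 500.1.

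Centring the arrays on their medians instead of this trimmed mean moved the median of all genes to 0.157, and with it the members: 17 then lay without overlap above the PBS arrays and 0 below, beside 29.2% and 1.7% of all genes. KAT2B then had 0.37 and KAT2A -0.04, and 0 members passed the adjusted threshold (lowest adjusted p = 0.281).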

How the data were processed

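Per the submitters' processing notes the authors used MAS5, which gives 1 signal per probe set within each array; for its version, the sources used here give none. The deposited intensity values are linear, and the mean without the lowest and highest 2% was 500.1 on every array. There were 54675 probe sets, 62 of them controls. The platform annotation gave 1 symbol for 41091, several for 1801 and none for 11777; the Entrez IDs of 41037 matched RefSeq and 0 symbols changed.

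Before the log2 step 10.96 was added to each signal, which is the table's 20th percentile. Non-control probe sets whose mean log2 value reached the 40th percentile, near a signal of 33.8, entered the test (32768 in all). TCI04 was set against PBS in limma 3.58.1 under R 4.3.3, using lmFit and a trended eBayes with 10.5 degrees of freedom. Its p-values were two-sided and adjusted by Benjamini-Hochberg, with a threshold of 0.05. Ratios were compared by exact permutation tests (scipy 1.17.1). The number of arrays limits the precision.

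Array values were given for members without overlap and with an unadjusted p under 0.05, and for the brightest and the smallest-p member of each family; other genes are said to be named after their values were seen. In each related list up to 3 genes with the smallest p were named. The members and lists were chosen with earlier results of these data known. The alternatives were other scalings, offsets, filters, probe set rules and variance models, a replicate block and each array left out. Promoter windows had no entry for 4 members.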

Additional observations from a re-analysis of the deposited data

How the results depend on the processing

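The number of members past the adjusted threshold was 0 in all 19 alternatives, with adjusted p of 0.281 or more. The members' median log2 fold change went from 0.003 to 0.163 with arrays centred on their medians, -0.036 when all probe sets of a member were averaged and 0.036 without _x_at and _s_at probe sets (36 members left), and lay at -0.026 to 0.009 when any one array was left out. Members higher at an unadjusted p under 0.05 went from 1 to 15 with median centring (18.4% of all genes higher and 1.01% lower there), 2 with array weights, no filter and the ordinary t statistic and 0 without a variance trend (3.54%, 2.77%, 3.44% and 1.57% of all genes), and members lower from 0 to 2 with the mean of probe sets and the ordinary t statistic (4.73% and 3.02% of all genes) and 1 with no filter, quantile normalization and the replicate block (4.12%, 2.87% and 5.22%); with single arrays left out they ranged from 0 to 2 (1.98% to 3.44% of all genes) and from 1 to 2 (2.88% to 4.71%). Members above without overlap went from 5 to 17 with median centring, 8 with quantile normalization and 2 with the mean of probe sets, and members below from 3 to 0, 5 and 7, where all genes gave 29.2%, 7.49% and 4.97% above and 1.7%, 5.36% and 9.14% below; with single arrays left out, when fewer arrays must be apart, they ranged from 7 to 11 (9.93% to 13.3% of all genes) and from 5 to 9 (11.2% to 13.6%). The cause of the other shifts was not tested.

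Of the 16 members followed by the rule, 9 had 1 sign throughout, as had 21 of all 51. Alternatives that changed only the test statistic, the filter or the replicate block could not alter these log2 fold changes. Only the other alternatives could turn a sign. The mean of probe sets gave -0.184 for CREBBP, -0.134 for KMT2A and -0.104 for SIRT5. Median centring gave 0.073 for NSD2, 0.119 for SUZ12 and 0.10 for TET3. NSD2 gave 0.025 without _x_at and _s_at probe sets, SUZ12 0.007 without PBS replicate 2 (-0.082 to 0.007 over the arrays left out), and KDM2A -0.012, -0.006 and -0.01 without PBS replicate 3, TCI04 replicate 1 and TCI04 replicate 3 (-0.012 to 0.113 over the arrays left out). The KAT2A/KAT2B ratio, followed after its values were seen, differed by -0.50 to -0.32 in 19 alternatives, without overlap in each. Most of these could not have shown overlap. Only the other offsets and quantile normalization change the ratio within an array, and they gave -0.41, -0.39 and -0.38. Leaving out an array cannot make separate groups overlap. The correlations of same-numbered deviations were 0.003, 0.062 and 0.05, and those of differently numbered arrays were -0.061 to 0.009. None was over 0.1, the limit set for treating the arrays as paired. Such small values cannot settle whether the arrays were paired by number.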
